A study of Caenorhabditis elegans with 2 samples.

Results

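Y17D7C.2, Y17D7C.3, Y17D7C.4, Y17D7C.6 and Y17D7C.7 are 5 adjoining genes and pseudogenes on chromosome V of Caenorhabditis elegans, of 46890 annotated genes. They were chosen by measured values, namely the number and signal of pooled and optimal IDR regions of tagged SPTF-1 around them. The number, signal, rank and place of the listed regions are therefore given below as a description, with no test. Every listed region on chromosome V between 18.69 and 18.75 Mb of the ce11 build was taken. This stretch held 9 of the 193 regions of the pooled list, 2 of the 18 regions of the optimal IDR list, 33 of the 30000 regions of replicate 1 and 35 of the 30000 regions of replicate 2. IDR, the irreproducible discovery rate, compares how replicates rank their regions. A place in the optimal IDR list did not need a listed region in both replicates. The one in Y17D7C.4 overlapped no region of replicate 2.

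The data were ChIP-seq region lists from whole larvae of the first larval stage (L1), of strain OP196 in mixed-sex cultures. Both biological replicates form 1 group and carry unc-119(ed3), a mutation on chromosome III, and the inserted transgene wgIs196, which adds eGFP-tagged SPTF-1. The antibody is labelled sptf-1, the age is labelled unknown, and no label says which promoter drives the tagged gene. Signal from all cells of a larva is summed, and no control library or untagged strain was analysed here.

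SPTF-1 belongs to the Sp family of transcription factors, whose members bind GC-rich boxes near promoters through C2H2 zinc fingers. A pseudogene is a copy or remnant of a gene annotated as making no functional protein. The arms of C. elegans chromosomes hold more repeats and more young gene copies than the centres, and chromosome V is known for large families of such copies. In ChIP-seq a listed region is a place where sequenced fragments pile up, its summit is the place of the highest pile, and the deposited signal value gives the height on a scale that was not stated. Each replicate list is described as peaks and background, so a listed region need not be a called peak. Of its 30000 regions, 40 in replicate 1 and 29 in replicate 2 had a deposited q under 0.05.

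The genes run in the order Y17D7C.6, Y17D7C.4, Y17D7C.2 with Y17D7C.7 inside it, and Y17D7C.3, from 18709810 to 18723771, a span of 13962 bp. Y17D7C.6 (WBGene00194680) is a protein-coding gene on the plus strand at 18709810 to 18711856, for a protein that RefSeq calls uncharacterized. Y17D7C.4 (WBGene00050903) is a pseudogene of 885 bp on the plus strand at 18713728 to 18714612. Y17D7C.2 (WBGene00012456) is a protein-coding gene on the minus strand at 18715853 to 18719987, which RefSeq describes as an ADP-ribosyl cyclase/cyclic ADP-ribose hydrolase. Enzymes of that kind make and break down cyclic ADP-ribose, a messenger that releases calcium inside animal cells. Y17D7C.7 (WBGene00196033) is a non-coding RNA gene of 121 bp at 18718257 to 18718377, within an intron of Y17D7C.2 and on the same strand. Y17D7C.3 (WBGene00045366) is a pseudogene of 3183 bp on the minus strand at 18720589 to 18723771.

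The sequences under 3 summits are shown because they are the places with the highest pooled signal in these genes. Each is 300 bases of the ce11 reference centred on a summit, read 5′ to 3′ on the strand of its gene, with exon bases of that gene in capitals. The first and second lie under the 2 optimal IDR regions, and the third under the next pooled region of Y17D7C.3.
Y17D7C.4, chrV:18714452-18714751, strand plus: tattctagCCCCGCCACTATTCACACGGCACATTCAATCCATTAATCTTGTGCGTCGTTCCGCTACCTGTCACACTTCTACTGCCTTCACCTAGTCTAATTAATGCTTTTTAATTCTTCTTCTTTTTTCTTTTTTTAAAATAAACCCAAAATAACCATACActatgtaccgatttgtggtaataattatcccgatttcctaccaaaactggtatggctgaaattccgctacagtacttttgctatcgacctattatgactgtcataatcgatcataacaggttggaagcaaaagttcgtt
Y17D7C.3, chrV:18722560-18722859, strand minus: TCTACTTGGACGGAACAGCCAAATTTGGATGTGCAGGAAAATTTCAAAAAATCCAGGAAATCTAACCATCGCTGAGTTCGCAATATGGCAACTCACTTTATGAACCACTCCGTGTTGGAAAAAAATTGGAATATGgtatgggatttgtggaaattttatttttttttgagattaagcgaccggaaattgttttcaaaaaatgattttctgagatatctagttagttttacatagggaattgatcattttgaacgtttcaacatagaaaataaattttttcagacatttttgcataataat
Y17D7C.3, chrV:18720670-18720969, strand minus: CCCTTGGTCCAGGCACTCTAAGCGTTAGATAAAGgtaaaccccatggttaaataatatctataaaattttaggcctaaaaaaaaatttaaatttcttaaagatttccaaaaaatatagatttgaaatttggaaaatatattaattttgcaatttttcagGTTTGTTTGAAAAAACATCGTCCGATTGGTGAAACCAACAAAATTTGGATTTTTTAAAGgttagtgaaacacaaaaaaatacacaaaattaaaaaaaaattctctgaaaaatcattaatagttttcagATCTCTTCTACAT

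The 2 optimal IDR regions lay in the pseudogenes Y17D7C.3 and Y17D7C.4. The one in Y17D7C.3, at 18722538 to 18722881, had a pooled signal of 40.4, rank 2 of 193. It was listed in both replicates, with a signal of 21.8 and rank 84 in replicate 1 and a signal of 22.2 and rank 10 in replicate 2. The summits of the replicates lay 40 bp apart in an exon, 1038 and 998 bp into the gene, and the pooled summit lay 1061 bp into the gene, in an intron. The one in Y17D7C.4, at 18714430 to 18714773, had a pooled signal of 39.1, rank 4, with its summit in an exon, 874 bp into a gene of 885 bp. In replicate 1 its signal was 34.3, rank 2 of 30000. In replicate 2 no region overlapped it, and the nearest one lay 130 bp away. Both had a deposited q of 0.0667 in the pooled list, where no region was under 0.05. Every other pooled region of the stretch had a deposited q of 0.362 or more. By that column the region at 18712063 to 18712406 ranked 185 of 193, so a place in the pooled list is not a call of a peak. Over the whole pooled list, 9.33% of regions were kept in the optimal IDR list, and the lowest of those had a signal of 35.1. The next regions of the stretch, at 34.7 each and ranks 24 and 25, were both in Y17D7C.3 and fell just below that value.

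**Figure D1:**
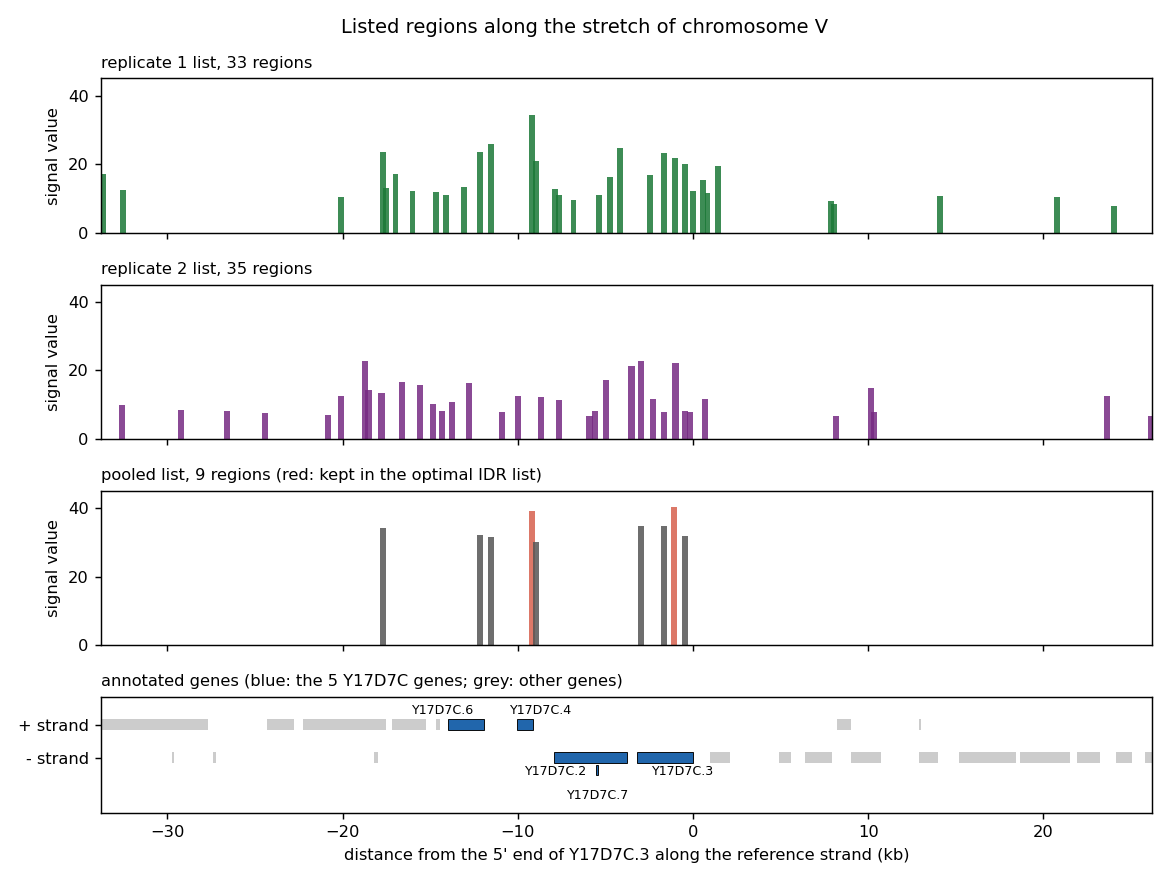
Signal value (vertical axes, authors' scale) of every listed region along the stretch, against distance in kb from the 5′ end of Y17D7C.3, for replicate 1, replicate 2 and the pooled list, above the annotated genes. The 9 pooled regions sit in 2 groups, 5 to the left and 4 inside Y17D7C.3, and the 2 kept in the optimal IDR list, in red, have signals of 39.1 and 40.4.

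Y17D7C.3 held 4 of the 9 pooled regions, with signals between 31.9 and 40.4, all with summits in introns. Of these, the region at 18720648 to 18720991, near the 3′ end of the pseudogene, had a pooled signal of 34.7 and matched a replicate 2 region of signal 22.7 and rank 8. No region of replicate 1 overlapped it, and the nearest lay 172 bp away. The region at 18721928 to 18722271 had the opposite make-up, with a signal of 23.2 and rank 44 in replicate 1 but a signal of 7.84 and rank 16711 in replicate 2. The last, at 18723144 to 18723487, was likewise high in replicate 1, at 20.1 and rank 179, and low in replicate 2, at 8.10 and rank 15138. In all, 5 regions of replicate 1 and 6 of replicate 2 overlapped this pseudogene. Their signals ran between 12.3 and 23.2 in replicate 1 and between 7.84 and 22.7 in replicate 2.

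Y17D7C.4 was overlapped by 1 region in each replicate, at opposite ends of the pseudogene. The replicate 1 region, of signal 34.3, covered its 3′ end. The replicate 2 region, at 18713621 to 18713970, covered its 5′ end with a signal of 12.5 and rank 2138. A pooled region just past the pseudogene, at 18714647 to 18714990, had a signal of 30.04 and rank 130. It overlapped a region of replicate 1 (signal 20.8, rank 132) and a region of replicate 2 (signal 12.2, rank 2564).

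Of the protein-coding genes, Y17D7C.6 held 1 pooled region and Y17D7C.2 held none. The one in Y17D7C.6 lay at 18711431 to 18711774, with a signal of 32.1, rank 61, and its summit in coding sequence 1793 bp into the gene, far from its start. It came with a signal of 23.5 and rank 37 in replicate 1 and no region in replicate 2, the nearest being 289 bp away. The highest replicate 2 region in Y17D7C.6 lay elsewhere, in an intron at 18710792 to 18711141, with a signal of 16.4 and rank 256. Between Y17D7C.6 and Y17D7C.4, a pooled region at 18712063 to 18712406 had a signal of 31.5 and rank 77, 1493 bp upstream of Y17D7C.4. It, too, had a high region in replicate 1 only, of signal 25.98 and rank 8.

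Y17D7C.2 was overlapped by 6 regions of replicate 1 and 4 of replicate 2 but by no pooled region. Its highest region in replicate 1, at 18719462 to 18719797, had a signal of 24.8 and rank 19. The summit lay in an intron, 357 bp into the gene. No replicate 2 region overlapped that region. The highest replicate 2 region of Y17D7C.2, at 18718609 to 18718958, had a signal of 17.2 and rank 147. In replicate 2 a further region of signal 21.2 and rank 15, at 18720088 to 18720437, lay 276 bp upstream of the start of Y17D7C.2, in the gap before Y17D7C.3. No region of replicate 1 overlapped it. Y17D7C.7 was touched by 1 low region per replicate, with a signal of 11.0 and rank 10080 in replicate 1 and a signal of 8.29 and rank 14157 in replicate 2, and no summit fell inside it. Since it lies within Y17D7C.2, these same regions are counted for both genes.

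**Figure D2:**
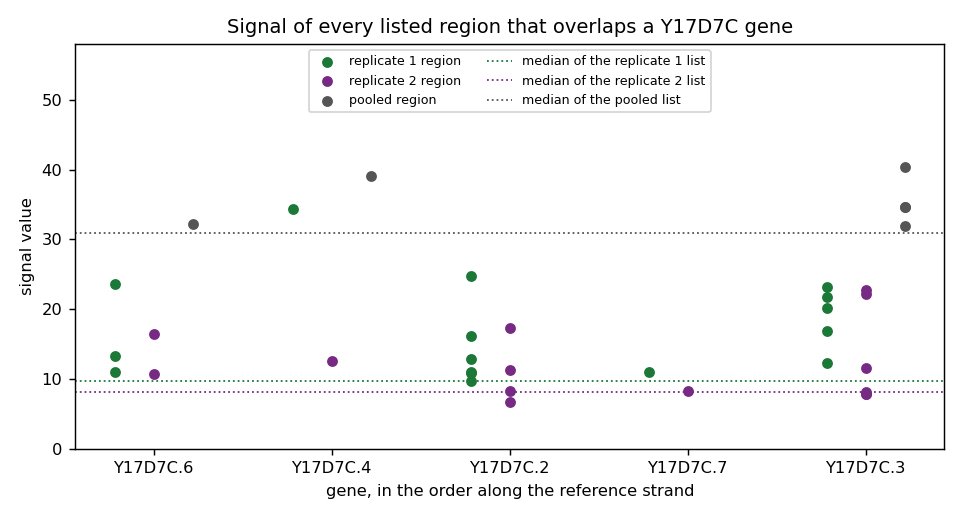
Signal value (vertical axis, authors' scale) of each listed region that overlaps one of the 5 genes, by list, with dotted lines at the median signal of each whole list. Y17D7C.3 and Y17D7C.4 carry the highest pooled regions, 40.4 and 39.1, and Y17D7C.2 and Y17D7C.7 carry none.

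The crowding took in the span of the 5 genes and the genes just to its left. In replicate 1, 16 of the 33 regions of the stretch had their summits in this span, with a median signal of 18.5, against 11.8 for the 17 outside it. In replicate 2, 16 of 35 did, with a median signal of 11.4, against 10.1 for the other 19. Both replicates thus had 1.15 summits per kb of the span, against 0.299 per kb over the genome. Of the pooled regions 8 of 9 had summits in the span. The exception, at 18705914 to 18706257, had a pooled signal of 34.0, rank 27, and a summit in the 3′ UTR of Y69H2.9, a gene for an uncharacterized protein, 55 bp into the pseudogene Y69H2.16. Over the whole stretch the median signal was 13.2, 11.3 and 34.0 in replicate 1, replicate 2 and the pooled list, against 9.78, 8.13 and 30.9 in the full lists.

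To the left and right the crowding ended. Bins of 5 kb along the stretch held 2, 0, 1, 6, 5, 6, 7, 1, 2, 1, 1 and 1 summits in replicate 1 and 2, 2, 2, 7, 4, 5, 8, 0, 3, 0, 0 and 2 in replicate 2. In both replicates, the bins with 4 or more were the same 4 neighbouring bins, which cover the 5 genes and, to their left, Y17D7C.1, Y17D7C.5 and the 3′ part of Y69H2.9. The leftmost of the 4, which ends just inside Y17D7C.6, held 6 summits in replicate 1 and 7 in replicate 2, no fewer per kb than the span. The highest replicate 2 region of the stretch lay there, at 18704867 to 18705216 in coding sequence of Y69H2.9, with a signal of 22.8 and rank 7. No replicate 1 region overlapped it. Y17D7C.1, annotated as a transposase gene, held 2 further top 500 regions of replicate 2, with signals of 16.5 and 15.7. Just right of the span, replicate 1 had a top 500 region at 18725035 to 18725370, in the non-coding RNA gene Y17D7C.9, with a signal of 19.4 and rank 264. No replicate 2 region overlapped that one. To the right, the aspartic protease genes asp-18 and asp-19 and the SCP-domain genes scl-19 and scl-20 held no pooled region. Nor did clec-250, described by RefSeq as a C-type lectin domain protein, or clec-251 and clec-252, described as PAN-3 domain proteins. The pooled regions nearest to the stretch on either side were 77725 bp and 25651 bp beyond its bounds, with signals of 29.7 and 29.1. Just inside the bounds, the outermost replicate 1 regions had signals of 17.1 and 7.82, and the nearest ones outside had 8.10 and 10.9. In replicate 2 they had 10.1 and 6.60 inside and 8.50 and 7.05 outside.

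Among 60 kb windows the stretch stood at the top of every list by at least 1 measure. Of 1668 windows tiled along the chromosomes, 1497 held no pooled region, and none held as many as the 9 of the stretch, a percentile of 100. The highest window held 5, and both windows with 5 were the neighbouring tiles that the stretch straddles. The 33 regions of replicate 1 were matched by 1 tile, against a median of 18, which puts the stretch at a percentile of 99.94. The 35 regions of replicate 2 were above all tiles, whose median was 18 and highest count 33. Summed signal over the stretch was 520 in replicate 1, against a tile median of 187, and 420 in replicate 2, against 156. No tile reached either sum, the highest being 416 in replicate 1 and 312 in replicate 2. By the highest single signal, the stretch stood lower, with 5 tiles as high in replicate 2, among them the tile that holds the stretch's own highest region. Listed regions covered 17.4% of the stretch in replicate 1 and 19.5% in replicate 2, against 9.93% and 10.3% of the genome.

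**Figure D3:**
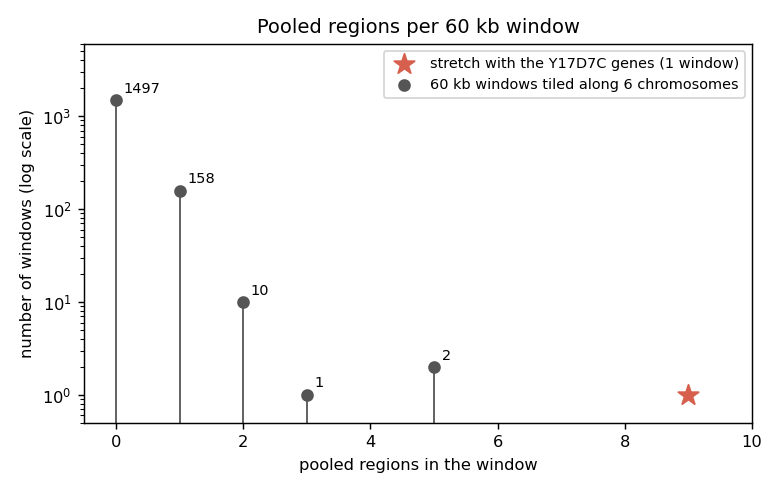
Number of 60 kb windows (vertical axis, log scale) by the number of pooled regions they hold (horizontal axis), with the stretch marked by a star at 9. Of the tiles, 1497 hold 0 pooled regions and 158 hold 1, and the 2 tiles with 5 both lie partly in the stretch.

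Windows most like it elsewhere were far sparser. By number of pooled regions and then by their summed signal, the next was on chromosome V at 19620001 to 19680000, with 3 regions and a summed signal of 104, against 309 in the stretch. Its highest region, nearest to Y43F8C.5, had a signal of 39.1. Of the 4 that followed, each with 2 regions, the first was on chromosome II, near mnk-1, a gene for a MAP kinase-interacting kinase, with a highest signal of 39.7. The others were near Y44E3A.1, Y37D8A.4 and Y39B6A.81, with highest signals of 35.7, 35.0 and 33.9. Within the stretch the median distance to the nearest other pooled summit was 610 bp, against 174595 bp over the whole pooled list.

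Both replicates crowded the stretch, but with their highest regions mostly at different places. Of the replicate 1 regions there, 21 of 33 overlapped a region of replicate 2 by at least 1 bp, or 63.6%, with an exact Clopper-Pearson 95% interval of 45.1 to 79.6%, against 27.9% of the whole replicate 1 list. Of the replicate 2 regions 18 of 35 overlapped one of replicate 1, or 51.4% (34.0 to 68.6%), against 28.1%. Listed regions cover more of this stretch than of the genome, and the part of that in these shares was not tested. Where the summits had to lie within 100 bp, the shares were 24.2% and 22.9%, against 12.4% of each whole list. For the pooled regions the order was the other way round. Of those in the stretch, 5 of 9 overlapped a region of both replicates, or 55.6% (21.2 to 86.3%), against 88.6% of the whole pooled list. These intervals treat regions as independent, though some neighbours share a partner. The stretch was chosen by its regions, so the intervals are a description and not a test. Replicate 1 gave a partner to 8 of the 9, against 98.4% of the whole pooled list, and replicate 2 to 6 of the 9, against 90.2%.

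Few of the high regions coincided, both here and in the whole lists. Of the 500 regions of highest signal in each replicate, which are 1.67% of each list, 10 in replicate 1 and 8 in replicate 2 lay in the stretch, against at most 6 and 5 in any tile. The tile that holds the left part of the stretch itself reaches both of those counts. Only 1 of the 10 and 1 of the 8 overlapped a top region of the other replicate, and they were the pair in Y17D7C.3 at ranks 84 and 10. Over the whole lists there were 8 such pairs among the 500 top regions of each replicate. The share was thus higher in the stretch, but it rests on 1 pair. The summits of the 10 in replicate 1 lay a median of 850 bp from the nearest top region of replicate 2, a distance not given here for the whole lists. Among the 23 overlapping pairs of the stretch, 1 had both regions in the top 500, 7 had 1 of them there and 15 had neither, against 8, 364 and 8429 of the 8801 pairs of the whole lists. Pairs with 1 or both in the top 500 thus made up 34.8% of those in the stretch and 4.23% of all. The stretch was chosen by the signal of its regions, so a raised share follows from that choice. It does not measure how well the replicates match. By a deposited q under 0.05, replicate 1 had 5 regions here of the 40 in its list (0.133% of all) and replicate 2 had 4 of 29 (0.0967% of all). None of these 9 overlapped a region under that q in the other replicate, against 1 of the 40 in the whole replicate 1 list and 1 of the 29 in replicate 2.

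**Figure D4:**
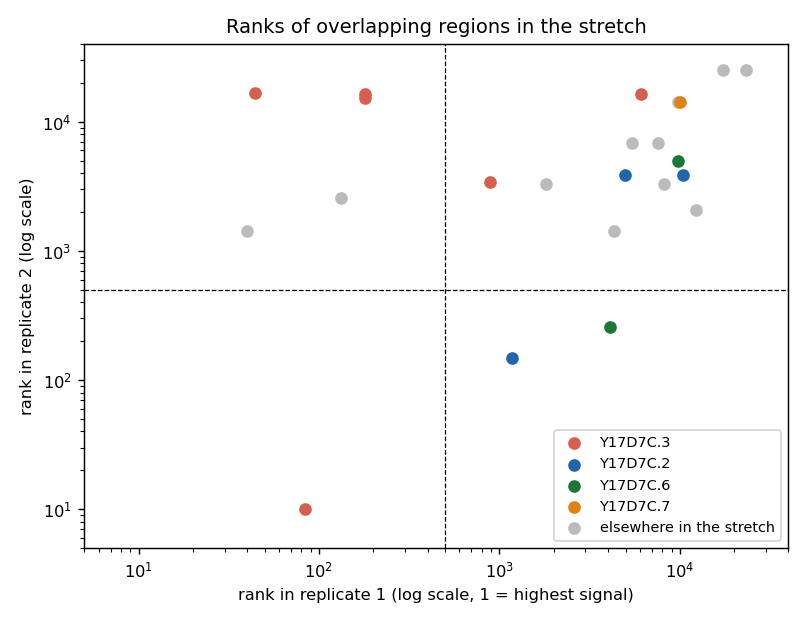
Rank in replicate 2 (vertical axis) against rank in replicate 1 (horizontal axis), both on log scales with 1 the highest signal, for the 23 overlapping pairs of the stretch, coloured by the gene at the midpoint of the pair. Dashed lines mark rank 500, and the single pair below both is in Y17D7C.3, at ranks 84 and 10.

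More than any other feature, pooled summits in the stretch lay in pseudogenes. Of the 9 summits, 6 lay within the bounds of a pseudogene, against 6.74% of all pooled summits. They were 1 in an exon of Y17D7C.4, 4 in introns of Y17D7C.3 and 1 in Y69H2.16, which there overlaps the 3′ UTR of Y69H2.9. Of these, 5 are in genes chosen for their regions, so the share is a description. Of the 9, 2 summits lay within 500 bp of an annotated start, or 22.2%, against 28.5% of all pooled summits. Exons held 3 of 9 summits, against 32.1% of all pooled summits.

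By the median, the sequence under the pooled regions of the stretch was lower in G and C and more often masked. Median G+C content was 32.3% in the 9 regions of the stretch (28.5 to 46.5%), against 37.2% in the other 184. Bases masked as repeat or low complexity made up a median of 50.6% of a region in the stretch, against 27.0% in the others. The span of the 5 genes had a G+C content of 32.3% and was masked over 57.9%, against 35.4% and 35.7% for the 6 chromosomes. The whole stretch had 35.3% and 47.7%. The part of repeats and base composition in the listed signal was not tested. The GC box core GGGCGG, a binding sequence of Sp proteins, was searched on both strands with overlapping matches counted. It was in 0 of the 9 pooled regions of the stretch, against 14 of the other 184, or 7.61%. In the span of the 5 genes it occurred 4 times, or 17.2 times per 60 kb, against 10.7 per 60 kb over the 6 chromosomes. Over the whole stretch it occurred 8.0 times per 60 kb, below the chromosomes. It was in 2 of the 33 regions of the stretch in replicate 1 and 2 of the 35 in replicate 2, or 6.06% and 5.71%, against 5.0% and 5.67% of the whole lists. Those of replicate 1 were the rank 19 region in Y17D7C.2 and a rank 787 region in Y17D7C.1. Those of replicate 2 had ranks 2138 and 2075.

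**Figure D5:**
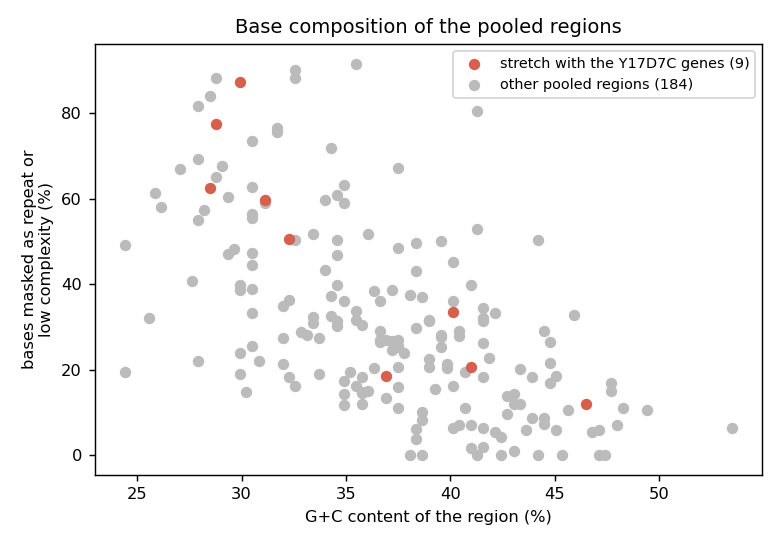
Share of masked bases against G+C content, both in percent of a region, for the 9 pooled regions of the stretch, in red, and the other 184, in grey. Of the 4 regions in Y17D7C.3, all have under 32% G+C and over 59% masked bases.

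Most of the pooled regions of the stretch had no close copy, and the replicate regions were not searched. An alignment of at least 80% identity over at least 50% of the region was found elsewhere in the genome for 2 of the 9 pooled regions, against 14 of the other 184. The regions in Y17D7C.3 and Y17D7C.4, the optimal IDR ones included, had none. Those in Y17D7C.3 were masked over 59.6 to 87.2%, and the effect of such sequence on the search was not tested. The region at Y69H2.16 matched the pseudogene Y17D7C.5 over 235 bp at 93.6% identity and the nuclear receptor gene nhr-241 over 232 bp at 90.1%. At Y17D7C.5 the highest listed signals were 11.8 in replicate 1 and 8.29 in replicate 2, and nhr-241 had no listed region at its copy. The region at 18712063 to 18712406 matched a place in srw-45, of a chemoreceptor family, over 208 bp at 96.6% identity, and no region was listed at that place. Among the genes themselves, Y17D7C.4 and Y17D7C.6 aligned over 160 bp near their 5′ ends at 85% identity, and both aligned there with the start of the transposase gene Y17D7C.1, at 85.7% and 84.8%. Y17D7C.6 also aligned with Y69H2.9, over 451 bp at 90.9% identity. The highest replicate 1 and pooled regions of Y17D7C.4 and Y17D7C.6 lay outside these shared parts. In replicate 2 the region at the 5′ end of Y17D7C.4, of rank 2138, touched the part shared with Y17D7C.6, and the rank 256 region of Y17D7C.6 touched the part shared with Y69H2.9.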

How the data were processed

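Regions were ChIP-seq regions of 2 replicates in narrowPeak format on ce11 and ce10, deposited by the authors. Each replicate list is described as peaks and background for IDR, and was derived from that replicate's alignment and 1 further file common to both, per the deposited file records. The authors' deposited signal values have no stated scale. The −log10 q of replicate regions, deposited by the authors, was used to count regions, and the same column of the pooled and optimal IDR lists, where some values lie just below 0, was treated as a score deposited by the authors. The p-value column was not filled in. No source used here gives the aligner, the peak caller or the depth, so depth is unknown, and intervals cover counting error only. The replicates share 1 group, so no comparison between conditions was made.

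Regions were ranked by signal, and a region belonged to the stretch when it shared at least 1 bp with it. Positions were read against WBcel235, which is ce11, with the Ensembl release 115 annotation and the RefSeq soft-masked genome. Copies were searched with blastn 2.17.0 at an e-value of 1e-05. Other steps used Python 3.11.15, numpy 2.4.6 and scipy 1.17.1, and were tested on simulated regions. The text names the 5 genes, some of the other genes of the stretch that hold or lie nearest to a pooled region or a top 500 region, and at most 5 genes for like windows. Beside these it names neighbours and copies that were named after their values were seen. The genes, lists and alternatives were chosen with earlier results of these data known. The sequence under 1 further summit is not reported here.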

Additional observations from a re-analysis of the deposited data

How the results depend on the processing

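The percentile of the pooled regions of the stretch among windows was 100 with 30 kb windows, 120 kb windows, summed signal, and the regions above the median signal of the list. It was 99.94 with tiles shifted by 30 kb, where the 1 tile as high coincides with the stretch itself. Without 1 replicate, taking as many regions from the top of the other list, it ranged from 100 to 100, with 5 regions in the stretch from replicate 2 and 9 from replicate 1. The ce10 lists gave the same 9 pooled and 2 optimal IDR regions. Ranking by the deposited p could not be run because that column is not filled in. Ranking by q instead, chosen after seeing the data, put 4 regions of the stretch among the highest 18, against 2 by signal. The overlap of replicate 1 regions with replicate 2 was 33.3% with a reciprocal overlap of 50% and 24.2% with summits within 100 bp, against 63.6% with 1 bp. That of replicate 2 regions with replicate 1 was 28.6% and 22.9%, against 51.4%. Any overlap with an exon was found for 7 pooled regions, against 3 by summit. At 95% identity 1 region had a copy, against 2 at 80%. No paired analysis was possible because the 2 samples form 1 group. Depth is unknown and limits every rank.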
